A study of Drosophila melanogaster with 33 samples.

Results

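RNA of fruit fly embryos at nuclear cycles (NC) 7-9, among the earliest stages at which transcription of the embryo's own genome can be sought, was separated into labelled and unlabelled fractions. Embryos of the wild-type strain Oregon R had been injected with 250 mM 5-ethynyl uridine (5-EU), a uridine analogue that is built into RNA made after the injection, and were staged by their shape. Labelled RNA was tagged with biotin and bound to streptavidin beads, which gave an eluate (bound RNA), a flow-through (RNA left unbound) and an input (total RNA before the pull-down). The 6 libraries described here were chosen by their stage label: eluate, flow-through and input in a poly(A) table, and the same 3 fractions in an rRNA-depleted table. They are 6 of the 33 libraries of the series (3 of 21 in the poly(A) table and 3 of 12 in the rRNA-depleted table). The other libraries came from embryos of the same strain at NC 9-10, syncytial blastoderm and cellular blastoderm, all with 250 mM 5-EU save 2 poly(A) preparations, the second ones of the blastoderm stages, which had 50 mM.

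All 6 NC 7-9 libraries share the injection, and no pull-down from embryos without 5-EU was analysed here, so RNA that sticks to the beads without label is not measured on its own. Each fraction had 1 library per table, so no NC 7-9 difference has a replicate check or a p-value. The titles give both tables the same preparation name at NC 7-9: both may come from the same embryos, and a gene found in both is then not seen in independent embryos.

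In the first nuclear cycles the nuclei of the fly embryo divide quickly in a shared cytoplasm, and nearly all messenger RNA was loaded into the egg by the mother. The first genes that the embryo transcribes are known to be short and mostly without introns. Mitochondria hold a small circular genome of their own, which is transcribed separately from the nucleus into long RNAs that are cut into messenger RNAs and ribosomal RNAs.

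The deposited values of a library carry an unknown factor, so the added 1 was taken off each value and each library was rescaled. Levels are given in ppm, as parts of a library total of 1000000, per unit of gene length and can be compared between genes and, after rescaling, between the fractions of 1 table. Before that step the typical gene's log2 eluate over input was −3.62 for poly(A) and −5.57 for rRNA-depleted RNA; afterwards it was 0.00 for each. Higher and lower below therefore mean relative to the typical gene, and say nothing on how much RNA was bound in all. The steps between low values put the reads, in units of 1000000, at 12.6 in the poly(A) eluate, 28.2 in its flow-through and 14.9 in its input. The rRNA-depleted eluate was shallow, with 2.98, against 29.9 in its flow-through and 11.6 in its input. One read in a gene of 1 kb was worth 0.189 ppm in the poly(A) eluate and 0.616 ppm in the rRNA-depleted eluate, so rRNA-depleted eluate levels of a few ppm rest on few reads.

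The tissue label was checked against marker genes. Maternal messengers of the early embryo were abundant in every fraction: bcd, which encodes the anterior morphogen Bicoid, stood at 72.1 ppm in the rRNA-depleted eluate, 61.7 ppm in the flow-through and 61.1 ppm in the input, and osk, a germ plasm gene, at 1031, 902 and 959 ppm in the poly(A) eluate, flow-through and input. Follicle cell markers were at or near 0: 1 of 7 passed the filter in the poly(A) table, at 0.117 ppm in the eluate, 0 ppm in the flow-through and 0.0892 ppm in the input, and 0 of 7 passed in the rRNA-depleted table. Of 11 markers of older embryonic tissues 3 passed in the poly(A) table, with a summed level of 0.82 ppm in the eluate, 0.257 ppm in the flow-through and 0.408 ppm in the input. In the rRNA-depleted table, 2 passed, with sums of 0.714, 0.412 and 0.487 ppm in the same order. The patterning genes eve and kni, which are transcribed strongly at blastoderm, were at 0 in all 3 rRNA-depleted libraries. In the poly(A) eluate, flow-through and input eve had 0, 0 and 1 reads and kni 1 (0.09 ppm), 0 and 0. Another marker of later staging, slam, went the other way, with 2302, 5216 and 2826 reads in these poly(A) fractions. The markers hh, wg and en of the same list are not given here.

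A rule of size was used in place of a test. A gene was called higher if its eluate level, as log2(ppm + 1), exceeded input and also flow-through by 1 or more (2-fold) and reached 5 ppm in the eluate, and lower if it lay at least 1 below both with an unbound level of at least 5 ppm. In the poly(A) table, 17 of 8744 genes (0.194%) were higher and 34 (0.389%) lower. In the rRNA-depleted table, 50 of 8131 genes (0.615%) were higher and 144 (1.77%) lower. The same fold between the unbound libraries, flow-through above input, was met by 3 poly(A) genes (0.0343%) and 14 rRNA-depleted genes (0.172%), and no gene lay that far below input in either table. Of 7970 genes tested in both tables, 10 were higher in both (0.125%) and 9 lower in both (0.113%). The 10 shared genes are 58.8% of the poly(A) list and 20% of the rRNA-depleted list; the 9 shared lower genes are 26.5% and 6.2% of their lists. Genes had to reach 1 ppm in at least 2 libraries of a table, later stages included, to be tested, and without that filter the same 10 genes met the rule.

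Of the 10 genes, 4 are nuclear (sisA, CG13712, CG13713 and dunk) and 6 belong to the mitochondrial genome (mt:CoI, mt:ND6, mt:ND2, mt:ND5, mt:ND4L and mt:ND4). All 4 nuclear genes were nearly absent from the unbound RNA: their flow-through levels were 0 to 0.19 ppm in the poly(A) table and 0.082 to 0.366 ppm in the rRNA-depleted table, and their inputs 0 to 0.184 ppm and 0 to 0.43 ppm. In such pooled samples fewer transcribing nuclei and less RNA per nucleus cannot be told apart. With the eluate minimum at 1 ppm in place of 5, the shared list grew to 25 genes (0.314% of 7970), which adds 15 nuclear genes and no mitochondrial one. At the same fold and level 14 genes were lower in both tables. The 15 were chosen through the eluate levels themselves and rest on few reads, so their values below are a description.

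**Figure D1:**
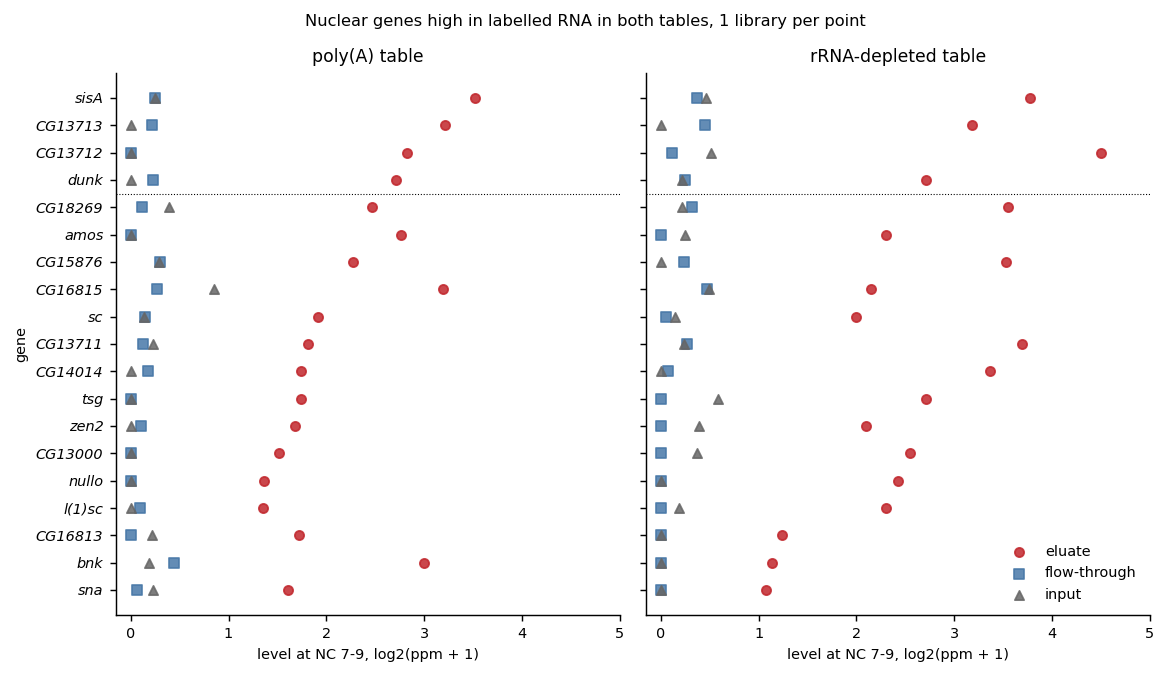
Level of 19 nuclear genes in the 3 fractions at NC 7-9, as log2(ppm + 1), in the poly(A) table (left) and the rRNA-depleted table (right); each point is 1 library and has no error. The 4 genes above the dotted line met the rule with an eluate of at least 5 ppm in both tables, the 15 below it only with an eluate of at least 1 ppm, and in every row the eluate lies to the right of flow-through and input.

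The gene sisA (sisterless A, FBgn0003411) lies on the X chromosome at 11321579 to 11322357 on the minus strand of BDGP6 and is a single exon of 779 bases. It encodes a bZIP protein by which the embryo counts its X chromosomes to set its sex. It stood at 10.4 ppm in the poly(A) eluate, 0.19 ppm in the flow-through and 0.184 ppm in the input, and at 12.6 ppm in the rRNA-depleted eluate, 0.288 ppm in the flow-through and 0.376 ppm in the input. These levels rest on 43, 2 and 1 reads in the poly(A) fractions and on 16, 4 and 2 reads in the rRNA-depleted ones. The eluate level was 55.5 times that of the unbound libraries together in the poly(A) table (95% exact interval 17.8 to 280) and 40.5 times in the rRNA-depleted table (15.1 to 126). Intervals of this kind cover counting error only, since reads copied by PCR are not independent molecules.

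Among the other genes by which X chromosomes are counted, sc (scute, X chromosome, a bHLH activator) was at 2.77 ppm in the poly(A) eluate, 0.103 ppm in the flow-through and 0.1 ppm in the input, and at 3.0, 0.039 and 0.102 ppm in the rRNA-depleted fractions. It belongs to the 15 genes found at the lower minimum. Also on the X, run (Runt, a transcription factor) stood at 1.32 ppm in the poly(A) eluate and 0.196 ppm in the rRNA-depleted eluate, with unbound levels of at most 0.091 ppm. The tables disagreed on dpn (deadpan, an autosomal bHLH repressor that acts against the X-linked counters): it was at 6.35 ppm in the rRNA-depleted eluate, 0.22 ppm in the flow-through and 0.144 ppm in the input (21, 8 and 2 reads), but at 1.12, 0.909 and 1.20 ppm in the poly(A) fractions. The switch gene Sxl, which is loaded by the mother, was present in all fractions, at 145 ppm in the poly(A) eluate, 95.6 ppm in the flow-through and 103 ppm in the input. In all, 1 of the 6 listed genes was called higher in the poly(A) table and 2 in the rRNA-depleted table. The shares over all genes tested were 0.194% and 0.615%. The 6 genes had medians of 0.90 and 1.15 (log2 eluate over input), where the median over all genes tested was 0.00.

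Genes that act when the blastoderm forms cells were the next group. The gene dunk (FBgn0083973, chromosome 2L, 22151623 to 22152640, plus strand, with 1 intron) acts on myosin at the start of cellularisation. It stood at 5.55 ppm in the poly(A) eluate, 0.167 ppm in the flow-through and 0 ppm in the input, and at 5.56 ppm in the rRNA-depleted eluate, 0.189 ppm in the flow-through and 0.165 ppm in the input. Its rRNA-depleted levels rest on 8, 3 and 1 reads, a ratio of 30.4 to the unbound libraries (95% exact interval 8.14 to 138), and it lies inside CG42748 on the same strand, which stood at 11.1 ppm in the poly(A) eluate and 11.2 ppm in the input.

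The X-linked gene nullo, which is needed for the furrows of cellularisation, had no read in any of the 4 unbound libraries, with 7 reads (1.57 ppm) in the poly(A) eluate and 6 reads (4.37 ppm) in the rRNA-depleted eluate. Setting 0 unbound reads to a floor of 3 over both unbound libraries, the eluate was 9.03-fold higher in the poly(A) table and 30.4-fold higher in the rRNA-depleted table. The eluate count was taken as exact, so these folds are not lower limits. One other gene, CG7271, also had at least 3 reads in both eluates (3 and 7) and 0 in all 4 unbound libraries. This search by reads was added after the data were seen. In the opposite direction 40 genes had at least 3 reads in both inputs and none in either eluate, and 165 had at least 3 in both flow-throughs and none in either eluate. These counts cannot be set against the first search. They ask for 0 reads in the eluates alone, the shallowest NC 7-9 library of each table, and not in 4 libraries.

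For bnk (bottleneck), which restrains the contraction of the furrow tips, the tables differed in depth of evidence: 38 reads (7.00 ppm) in the poly(A) eluate, 5 reads (0.36 ppm) in the flow-through and 1 read (0.14 ppm) in the input, against 2, 0 and 0 reads in the rRNA-depleted fractions. Other cellularisation genes showed maternal RNA in all fractions, such as slam at 106 ppm in the poly(A) eluate, 93.8 ppm in the flow-through and 98.6 ppm in the input. Of 6 cellularisation genes tested, 2 were called higher in the poly(A) table and 1 in the rRNA-depleted table, with medians of 0.76 and 1.36 (log2 eluate over input). Among all genes tested, 0.194% and 0.615% were called higher in these tables.

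The largest nuclear group had no described role that the labels or annotation give: short genes known only by CG numbers. CG13712 (FBgn0035570, 3L, 4709209 to 4709890, minus strand, 682 bases, no intron) had the highest nuclear level of the 10 genes in the rRNA-depleted eluate, 21.7 ppm, against 0.082 ppm in the flow-through and 0.43 ppm in the input. In the poly(A) table it stood at 6.1 ppm in the eluate (22 reads) with no read in the flow-through or the input. With the same floor of 3 unbound reads the eluate was 28.4-fold higher, which again is not a lower limit. CG13713 (FBgn0042199, 3L, 4697601 to 4698058, plus strand, 458 bases, no intron) was at 8.26 ppm in the poly(A) eluate, 0.162 ppm in the flow-through and 0 ppm in the input, and at 8.06, 0.366 and 0 ppm in the rRNA-depleted fractions.

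Both genes lie inside RhoGEF64C on chromosome 3L, together with CG15876 and CG13711, which reached 10.6 and 11.9 ppm in the rRNA-depleted eluate and 3.84 and 2.52 ppm in the poly(A) eluate. The 4 genes thus occupy 1 locus; CG15876 and CG13713 are 2755 bases apart and read away from each other. RhoGEF64C itself stood at 0.39 ppm in the poly(A) eluate and 0.26 ppm in the input, and at 0.25 and 0.20 ppm in the same rRNA-depleted fractions, below its inner genes in each eluate. The labels name a stranded library kit, but the strand setting of the counting is not given, so reads of overlapping genes may be shared. A second pair, CG14014 and CG18269 on chromosome 2L, are 1002 bases apart and also divergent. They stood at 9.29 and 10.7 ppm in the rRNA-depleted eluate and at 2.35 and 4.53 ppm in the poly(A) eluate, with at most 0.313 ppm in any unbound library. Further along 2L lay CG15480, CG16813 and CG16815, whose poly(A) eluate levels were 5.19, 2.31 and 8.17 ppm; CG16815 and CG16813 reached 3.43 and 1.36 ppm in the rRNA-depleted eluate, and CG15480 had no read there. The list of short early genes has 24 members, with the named genes Elba3 and Bacc among them. It gave 4 called higher in the poly(A) table and 6 in the rRNA-depleted table, with medians of 0.92 and 0.96. Among all genes tested, 0.194% and 0.615% were called higher. The list was written with genes already known from these data, so its count is no independent evidence.

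The rest of the 15 are developmental genes of other lists and CG13000, an X-linked gene without a described role that had 5 reads in the poly(A) eluate with none unbound, and 4, 0 and 1 reads in the rRNA-depleted eluate, flow-through and input. The proneural bHLH gene amos had 24 reads (5.78 ppm) in the poly(A) eluate and none in either unbound library, and 5, 0 and 1 reads in the rRNA-depleted eluate, flow-through and input. The X-linked l(1)sc, a neighbour of sc in the achaete-scute complex, stood at 1.55 ppm in the poly(A) eluate, 0.068 ppm in the flow-through and 0 ppm in the input, and at 3.93, 0 and 0.134 ppm in the rRNA-depleted fractions. Both genes later give cells a neural fate. The median log2 eluate over input of the 4 proneural genes tested was 1.21 in the poly(A) table and 1.53 in the rRNA-depleted table, with 1 and 0 called higher. Among all genes tested, 0.194% and 0.615% were called higher.

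Of the dorsoventral genes, tsg (twisted gastrulation, an X-linked gene for a secreted regulator of BMP signals) had 11 poly(A) eluate reads and 0 unbound ones, and 8, 0 and 3 reads in the rRNA-depleted eluate, flow-through and input. The homeobox gene zen2 stood at 2.22 ppm in the poly(A) eluate and 3.28 ppm in the rRNA-depleted eluate, with unbound levels of at most 0.312 ppm. The mesoderm gene sna (snail, a repressor) had 18, 1 and 2 reads in the poly(A) eluate, flow-through and input, and 3, 0 and 0 in the rRNA-depleted ones. Of the 16 listed dorsoventral genes 0 were called higher in the poly(A) table and 1, tsg, in the rRNA-depleted table, and the median was 0.00 in both. Among all genes tested, 0.194% and 0.615% were called higher. For tld, a protease gene of the same pathway, the rRNA-depleted eluate held 13 reads (2.38 ppm), the flow-through 3 and the input 0, and no poly(A) library had a read; dpp, sog and twi had at most 0.146 ppm in every fraction. None of 11 gap, terminal and head genes and none of 8 pair-rule genes was called higher in either table. The pair-rule genes summed to 0.965 ppm in the poly(A) eluate, 0.176 ppm in the flow-through and 0.212 ppm in the input. In the rRNA-depleted table they summed to 3.31, 0.0584 and 0.112 ppm in the same order. Few reads stand behind these sums: slp1 had 3, 1 and 0 poly(A) reads and 4, 1 and 0 rRNA-depleted ones. The median log2 eluate over input of the 8 genes was 0.00 in both tables.

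The nuclear genes called higher were often short and without introns. Length is not wholly outside the rule, since levels are per unit of gene length. Of the 11 nuclear genes called higher in the poly(A) table, 8 have no intron (72.7%), and of the 37 in the rRNA-depleted table, 19 (51.4%), where 11.7% of the 7909 annotated nuclear genes tested in both tables have none. Their median exonic lengths were 779 and 919 bases, against 2006 bases over the genes tested. Short length is not particular to the higher genes. Introns were lacking more often in the lower genes than over the genes tested, but less often than in the higher ones. Genes called lower had medians of 544 bases in the poly(A) table and 703 bases in the rRNA-depleted table, and 20.6% and 30.1% had no intron. The X chromosome held 1 of the 11 and 6 of the 37 (9.09% and 16.2%), and 1 of the 4 high in both tables (25%), where it held 17.3% of the genes tested. Of the 19 genes at the lower minimum, 16 have no intron (84.2%) and 6 are X-linked (31.6%).

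Several genes met the rule in 1 table alone. Among 7 poly(A)-only genes amos, bnk and CG16815 also lay 2-fold higher in the rRNA-depleted table at a lower level. The remaining 4 did not: RabX4, a Rab-family GTPase gene, stood at 6.0 ppm in the poly(A) eluate, 2.14 ppm in the flow-through and 2.23 ppm in the input, with no read in the rRNA-depleted eluate. The non-coding gene CR45566 was at 13.6, 3.60 and 4.99 ppm in the poly(A) fractions and at 0 ppm in the rRNA-depleted eluate, against 4.93 ppm in its flow-through and 7.14 ppm in its input. It overlaps RpL4 on the other strand, which stood at 1489 ppm in the poly(A) eluate and 1786 ppm in the input.

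Of the 40 genes found in the rRNA-depleted table alone, 7 are mitochondrial. Of the 33 nuclear ones, 24 lay above input in the poly(A) eluate, 7 of them at least 2-fold, with a median log2 of 0.52. The clearest contrast was CG34214, with 12, 4 and 1 reads in the rRNA-depleted eluate, flow-through and input (13.7, 0.416 and 0.272 ppm), but 0, 1 and 0 reads in the poly(A) ones; it overlaps ND-19 on the other strand. E(spl)m4-BFM, a Bearded family gene of the Notch pathway, stood at 5.68 ppm in the rRNA-depleted eluate and 0.748 ppm in the poly(A) eluate, with 0 to 0.148 ppm unbound. Genes nearest to the rule from outside were CR45102, Unr, scyl and mt:ATPase8, whose smallest of the 4 log2 differences was 0.99, 0.97, 0.92 and 0.88; just inside were mt:ND4, mt:ND6 and mt:ND4L at 1.11, 1.17 and 1.21, and dunk by its eluate level.

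The 6 mitochondrial genes differed from the nuclear ones in level: they were abundant in every fraction, and the eluate held more. The gene mt:ND2, for a subunit of respiratory complex I, stood at 374 ppm in the poly(A) eluate, 138 ppm in the flow-through and 91.6 ppm in the input, and at 2087, 308 and 229 ppm in the rRNA-depleted fractions. That is a log2 eluate over input of 2.02 and 3.18, the highest of the 13 mitochondrial protein genes in both tables. The most abundant, mt:CoI, for the catalytic subunit of cytochrome c oxidase, was at 10938 ppm in the poly(A) eluate, 4383 ppm in the flow-through and 3784 ppm in the input, and at 30117, 7790 and 6938 ppm in the rRNA-depleted fractions.

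Every mitochondrial protein gene lay above input and flow-through in both eluates, but not equally. In the rRNA-depleted table, 13 of 13 met the rule, where 0.615% of all genes tested met it. Their median log2 eluate ratio was 2.20 over input and 1.86 over flow-through. In the poly(A) table, 6 of 13 met the rule, where 0.194% of all genes tested did. The medians there were 1.52 over input but 0.88 over flow-through. Of the 7 complex I subunits 5 met it in the poly(A) table, and of the 6 other protein genes, of cytochrome c oxidase, cytochrome b and the ATP synthase, 1 did. The smallest poly(A) values over input were those of mt:CoIII and mt:CoII, at 0.96 and 0.99. Read as 1 quantity, mitochondrial genes took 10.0% of the poly(A) eluate's level, 7.57% of the flow-through's and 5.63% of the input's, and 14.7%, 4.72% and 3.66% in the rRNA-depleted fractions.

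The 2 ribosomal RNAs of the mitochondrion did not meet the rule. The large one, mt:lrRNA, stood at 44545 ppm in the poly(A) eluate, 39684 ppm in the flow-through and 29449 ppm in the input, and at 1468, 758 and 546 ppm in the rRNA-depleted fractions. The small one, mt:srRNA, was at 181, 142 and 96.3 ppm in the poly(A) fractions and at 230 ppm in the rRNA-depleted eluate, 788 ppm in its flow-through and 323 ppm in its input. Its rRNA-depleted eluate was thus the lowest of the 3 fractions, while its poly(A) eluate was the highest. How far the depletion removed these RNAs is not given, and its part in these values was not tested.

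**Figure D2:**
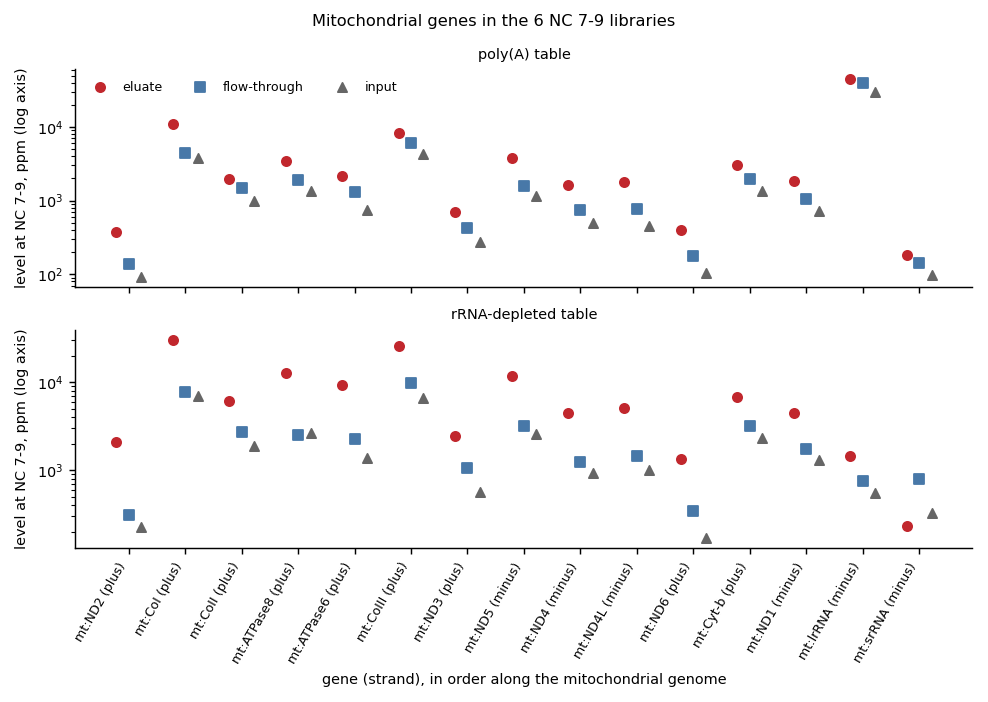
Level in ppm (log axis) of the 13 protein genes and 2 ribosomal RNA genes of the mitochondrial genome in the 6 NC 7-9 libraries, in their order along that genome with the strand in brackets; each point is 1 library. The eluate is the highest of the 3 fractions for all 13 protein genes in both tables and the lowest for mt:srRNA in the rRNA-depleted table.

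Fewer genes were shared among those lower in the eluates. All 9 are short, 316 to 1064 bases of exon with a median of 516, and 8 stood at 36.8 ppm or less in every library. The abundant one was MRE16, a single-exon gene of 361 bases on the X chromosome, at 294 ppm in the poly(A) eluate, 763 ppm in the flow-through and 600 ppm in the input, and at 1129, 2731 and 2426 ppm in the rRNA-depleted fractions. SLIRP2 had 2, 39 and 15 reads in the poly(A) eluate, flow-through and input and 0, 92 and 35 in the rRNA-depleted ones. The other 7 were CG10208, CG15922, CG18661, CG32448, CG8204, CG8360 and CR45165, with a log2 eluate over input between −2.53 and −1.01 in the poly(A) table and between −2.02 and −1.09 in the rRNA-depleted table.

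Small non-coding RNAs lay below the unbound RNA in the rRNA-depleted table, where 15 of 16 tested met the lower rule, at a median of −2.82 (log2 eluate over input), while 1.77% of all genes did. RNaseP:RNA, the RNA subunit of the enzyme that trims transfer RNA precursors, was at 181 ppm in the eluate, 1246 ppm in the flow-through and 963 ppm in the input. RNaseMRP:RNA was at 1267, 4756 and 4366 ppm. Most of the other listed members are scaRNAs, which guide the modification of spliceosomal RNAs. In the poly(A) table, where such RNAs are scarce, 0 of 14 met the rule, and RNaseP:RNA stood at 6.95 ppm in the eluate, 4.94 ppm in the flow-through and 3.36 ppm in the input. Ribosomal protein genes, whose messengers are short and abundant, lay slightly below input: their median was −0.43 over 85 genes in the poly(A) table and −0.48 over 86 in the rRNA-depleted table, with 0 and 3 meeting the lower rule.

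Gene length moved with the eluate values. Among genes with an input of at least 20 ppm, the median log2 eluate over input was −0.39 for 72 genes under 500 bases and 0.16 for 232 genes of 8000 bases or more in the poly(A) table. In the rRNA-depleted table it was −0.72 for 95 genes and 0.15 for 166. Flow-through over input ran the other way, at 0.14 and −0.12 for the same classes of the poly(A) table and 0.20 and −0.13 in the rRNA-depleted table. The 19 nuclear genes have 458 to 1668 bases of exon and inputs too low for these classes. The part of length in the values of single genes was not tested.

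**Figure D3:**
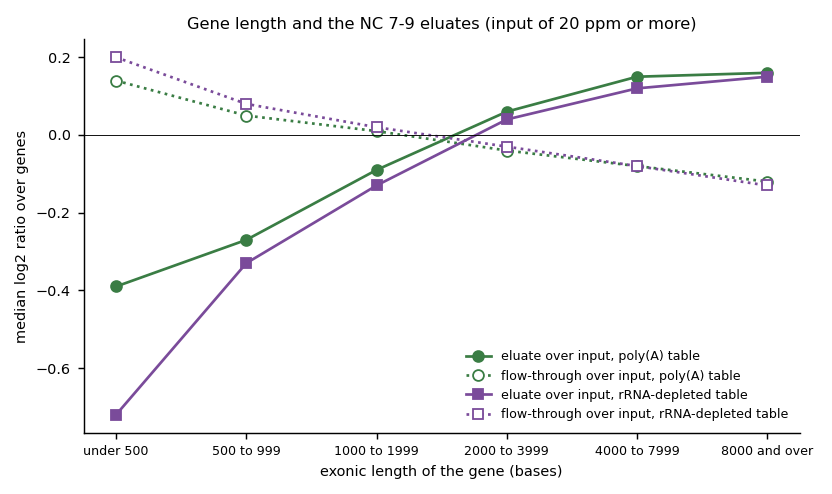
Median log2 ratio over genes by exonic length in bases at NC 7-9, for genes with an input of 20 ppm or more; solid lines are eluate over input and dotted lines flow-through over input, with circles for the poly(A) table and squares for the rRNA-depleted table. Eluate over input climbs from −0.39 and −0.72 in the shortest genes to 0.16 and 0.15 in the longest, and flow-through over input runs the opposite way.

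At the smaller fold of 0.5 on the log2 scale, a search added after the data were seen, all 4 differences were positive in 95 genes (1.19%) and negative in 180 (2.26%). Of the 40 nuclear genes on the higher side with an input of at least 20 ppm in both tables, the median exonic length was 5136 bases, and of 108 annotated genes on the lower side it was 771 bases, against 2148 bases over the 4924 annotated genes at that input. Unr, for an RNA-binding regulator of translation and dosage compensation, led the higher side at 522 ppm in the poly(A) eluate, 263 ppm in the flow-through and 266 ppm in the input, and at 195, 89.8 and 94.1 ppm in the rRNA-depleted fractions. Next was scyl, for an inhibitor of TOR signalling, at 1284, 665 and 676 ppm and at 434, 179 and 205 ppm. On the lower side RpL37A, a ribosomal protein gene, stood at 545 ppm in the poly(A) eluate, 1286 ppm in the flow-through and 1062 ppm in the input, and at 651, 2100 and 1718 ppm in the rRNA-depleted fractions.

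Across genes the tables ranked the eluates alike where levels were high. Over 1485 genes with an input of at least 100 ppm in both, log2 eluate over input correlated at a Pearson r of 0.882, over 4970 genes from 20 ppm at 0.671 and over 6049 from 5 ppm at 0.557. Genes are not independent replicates, and the values share gene length and may share the embryos. The spread was wider in eluates than between the unbound libraries: among genes of at least 5 ppm in input and flow-through, the SD of log2 eluate over input was 0.30 in the poly(A) table and 0.45 in the rRNA-depleted table, against 0.14 and 0.16 for flow-through over input. No such gene was at 0 in the poly(A) eluate (0 of 6120), and 16 of 6114 (0.262%) were at 0 in the rRNA-depleted eluate.

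**Figure D4:**
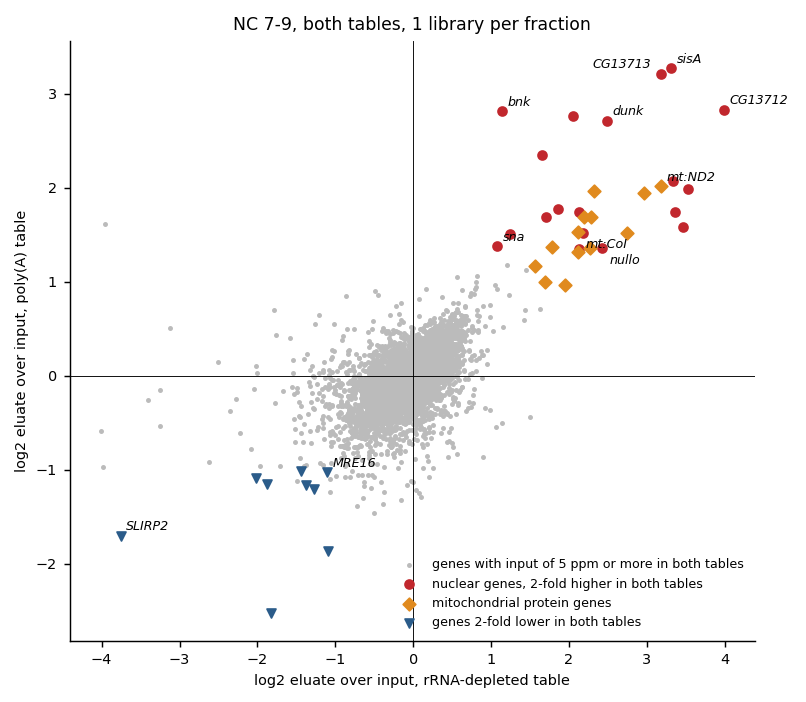
Log2 eluate over input at NC 7-9 in the poly(A) table (vertical) against the rRNA-depleted table (horizontal), 1 library per fraction. Grey points are genes with an input of at least 5 ppm in both tables; the 19 nuclear genes and the 13 mitochondrial protein genes lie at the upper right, and the 9 genes lower in both tables at the lower left.

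The same genes were then examined in the later preparations by a limma fit over all genes of the 18 later poly(A) libraries and, separately, of the 9 later rRNA-depleted libraries. With eluate against input as the contrast, 2687 of 8731 poly(A) genes (30.8%) were called higher at an adjusted p below 0.05 and 1099 (12.6%) lower. That fit did not pair the libraries by preparation. A paired poly(A) fit called 40.5% of the genes higher and 20.3% lower. Values below are from the unpaired fit unless the paired one is named. In the rRNA-depleted table, 51 of 8088 (0.631%) were called higher and none lower. The later libraries had a part in which genes were tested: none of the 19 nuclear genes had 1 ppm in 2 NC 7-9 libraries of either table, and all 19 reached it in later libraries, also when only flow-through and input are counted. Without the filter the wider list held 26 genes, adding CG1701. All 25 genes of the wider shared list were called higher in the poly(A) table and 16 of 25 in the rRNA-depleted table. For the 19 nuclear genes the poly(A) estimates ran between 3.15 and 3.95 on the log2 scale with adjusted p-values from limma of 5.36e-05 to 0.00368, where the median over all genes was 0.21. These poly(A) p-values measure the spread between preparations, which may be technical, and at syncytial and cellular blastoderm that spread includes the dose. The rRNA-depleted fit had 1 preparation per stage. Its errors and p-values measure how far differences between fractions vary from stage to stage, with no replicate within a stage. Without the first or the second NC 9-10 preparation limma called 1797 or 1607 poly(A) genes higher and 684 or 333 lower, and each of the 19 nuclear genes stayed under the threshold without any 1 preparation (largest adjusted p from limma 0.0397).

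For sisA the later estimate from limma was 3.92 ± 0.44 (SE) in the poly(A) table (adjusted p = 8.63e-05) and 4.73 ± 0.73 in the rRNA-depleted table (adjusted p = 0.03). CG13712 was at 3.78 ± 0.65 (adjusted p = 0.00097) and 5.55 ± 0.83 (adjusted p = 0.03). Of the 19 nuclear genes 13 were called in the rRNA-depleted table. The 6 that were not are sc, l(1)sc, nullo, CG16813, bnk and sna, with adjusted p-values from limma of 0.0569, 0.119, 0.203, 0.0773, 0.296 and 0.33. Without any 1 of its 3 preparations, limma called 0 genes of the rRNA-depleted table, and likewise 0 without the stage term.

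The 6 mitochondrial genes had smaller later estimates in the poly(A) table, 1.43 to 2.55 on the log2 scale, all called by limma (adjusted p 0.000547 to 0.0456). Over all genes 30.8% were called higher there. In the rRNA-depleted table the estimates ran between 3.51 and 5.05, with 3 of 6 called (mt:ND2, mt:ND4 and mt:ND4L), against 0.631% of all genes. The weakest poly(A) call was mt:ND6, at 1.43 ± 0.53 (limma, adjusted p = 0.0456), and it was lost on leaving out any 1 preparation other than the second at NC 9-10. Its estimate was 0.58 without the first NC 9-10 preparation, and its largest adjusted p from limma was 0.229, without the first cellular one. Of the genes found in the poly(A) table alone at NC 7-9, amos, bnk, CG15480 and CG16815 were called higher later, and RabX4, CR45566 and CG34216 were not (0.23, −1.0 and −0.90; limma adjusted p = 0.407, 0.2 and 0.0774). The paired fit called CG34216 lower (limma, adjusted p = 0.0341). Of 32 nuclear genes found in the rRNA-depleted table alone and tested later in the poly(A) table, 9 were called higher (28.1%), near the background of 30.8%, and 3 lower. The paired fit called 15 higher (46.9%, against 40.5% of all genes) and 4 lower. CG34214, without a read in the NC 7-9 poly(A) eluate, was among those called (3.0 ± 0.73, limma, adjusted p = 0.00657), as was dpn (3.19 ± 0.48, limma, adjusted p = 0.000461).

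Of the shared lower genes, 3 of 9 were called lower later in the poly(A) table (SLIRP2, CG18661 and CG32448, at −1.67, −1.27 and −1.97 in limma with adjusted p = 0.000411, 0.0214 and 0.0194) and 0 of 9 in the rRNA-depleted table, where no gene was. SLIRP2 stayed called without any 1 preparation. The calls of CG18661 and CG32448 were each lost in 4 of 6 such fits, with a largest adjusted p from limma of 0.156 without the second NC 9-10 preparation and of 0.123 without the first cellular one, and the CG32448 estimate came as near to 0 as −1.12. In the paired fit CG8204 was called as well (limma, adjusted p = 0.0453), which made 4 of 9. The 40 nuclear genes at least 0.5 higher at NC 7-9 gave 4 called higher later in the poly(A) table (10.0%), below the background of 30.8%, and 0 of 40 in the rRNA-depleted table. The lower side gave 69 called lower of 109 (63.3%), where 12.6% of all genes were, and 0 of 109 in the rRNA-depleted table. Short genes lay low in the later poly(A) eluates in general. There the median log2 eluate over input was 0.29 to 1.32 higher in genes of 4000 bases or more than in genes under 1000 bases. In the later rRNA-depleted eluates this difference was −0.18 to 0.67. The part of length in these calls was not tested. With the libraries paired by preparation, limma called 14 of the 40 higher (35.0%) and 4 lower, where it called 40.5% and 20.3% of all genes. Unr stood at −0.06 ± 1.18 in limma (adjusted p = 0.973). For scyl the estimate was 1.26 ± 1.22 (limma, adjusted p = 0.43), and it was called in the paired fit (limma, adjusted p = 6.11e-05).

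Levels of these genes in the eluate were higher at every later stage by the median. The median over the 19 nuclear genes in the poly(A) eluates was 2.76 ppm at NC 7-9, 118 and 15.5 ppm in the NC 9-10 preparations, 2360 and 1450 ppm at syncytial blastoderm and 746 and 809 ppm at cellular blastoderm. In the rRNA-depleted eluates it was 4.85, 155, 3680 and 1200 ppm in the same order of stages. The genes were chosen in part for being low in the NC 7-9 unbound RNA, so the median log2 eluate over input at that stage, 1.78 and 2.18, is limited by the added 1 at low levels and cannot be set against later values. The second NC 9-10 poly(A) preparation stood apart from the first, and there CG16813 was at 0.08 ppm in the eluate and 0.965 ppm in the input.

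For the 6 mitochondrial genes the median eluate level in the poly(A) table was 1710 ppm at NC 7-9, 5210 and 2550 ppm at NC 9-10, 16700 and 8210 ppm at syncytial blastoderm and 5820 and 6130 ppm at cellular blastoderm. The median log2 eluate over input was 1.81 at NC 7-9, 3.82 and 0.98 at NC 9-10, 2.71 and 2.51 at syncytial blastoderm and 1.65 and 1.13 at cellular blastoderm. The rRNA-depleted median eluate level was 4780 ppm at NC 7-9, 34800 ppm at NC 9-10, 26200 ppm at syncytial blastoderm and 10100 ppm at cellular blastoderm. Its median log2 eluate over input was 2.30, 5.80, 4.38 and 2.39 in the same order of stages. The NC 7-9 ratio thus lies within the range of the later preparations in the poly(A) table and below all 3 of them in the rRNA-depleted table.

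**Figure D5:**
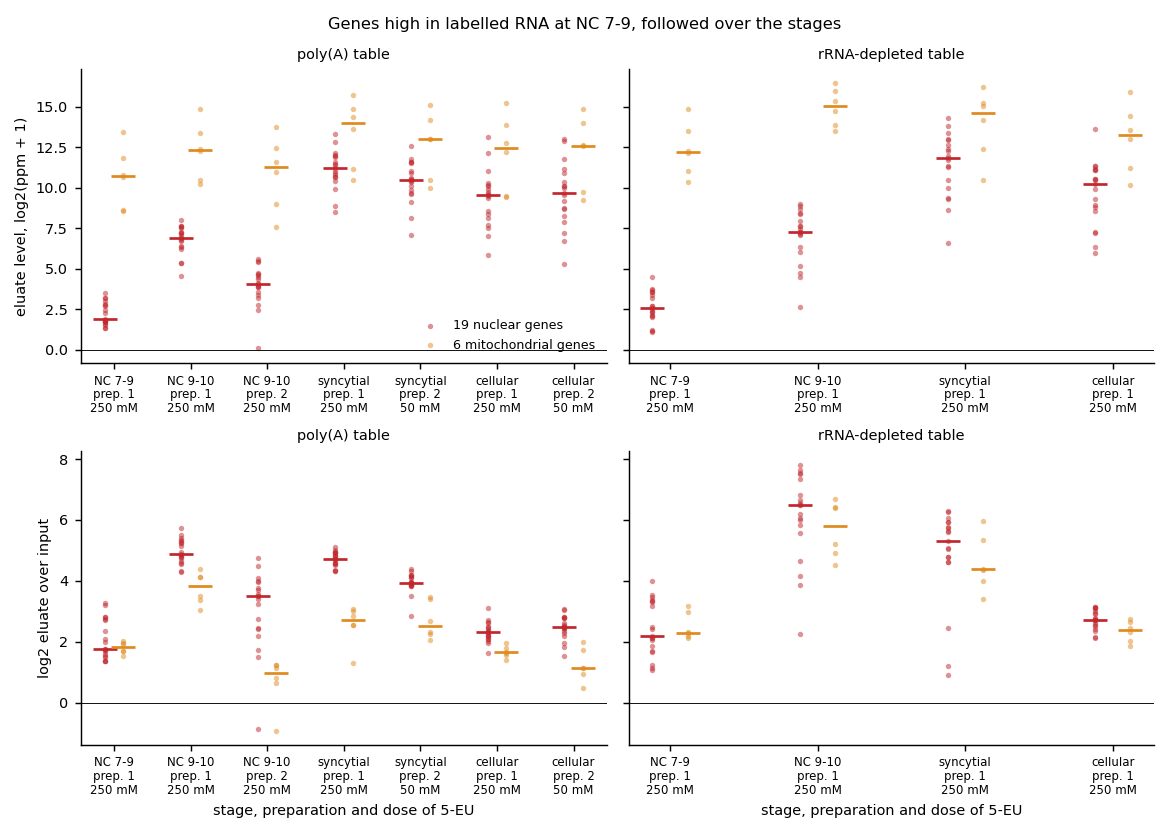
Eluate level as log2(ppm + 1) (top) and log2 eluate over input (bottom) in each preparation, in the order of stages, for the 19 nuclear genes (red) and the 6 mitochondrial genes (orange) high in both tables at NC 7-9; points are genes and bars are medians. Nuclear eluate medians climb from 2.76 ppm at NC 7-9 to 2360 and 1450 ppm at syncytial blastoderm in the poly(A) table, while the mitochondrial ones run from 1710 to 16700 and 8210 ppm.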

How the data were processed

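The labels give a stranded RNA-seq kit, and the submitters' processing notes name STAR, HTSeq and the dm6 build, with no versions or strand setting. The deposited RPKM values came from the authors as 1 table for poly(A) RNA and 1 for rRNA-depleted RNA; in each the values stand 1 too high (a gene without reads stands at 1) and carry a factor per library that the sources used here do not give. That 1 was removed, each library was scaled to 1000000, and median-of-ratios factors were applied within each table. Reads were recovered from the steps between low values. They came out whole within 0.05 for 76.0% of low values in the NC 7-9 rRNA-depleted eluate and 83.2% in its flow-through, the extremes of the 6 libraries, so read counts are estimates; those of named genes are given where whole within 0.1. Of 16407 genes, 99.53% were matched to the BDGP6 annotation. Genes needed 1 ppm in 2 libraries of the table, and log2 values have 1 added. Ratios of reads have exact Clopper-Pearson 95% intervals.

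The tests for later stages were limma fits on log2(ppm + 1) with Benjamini-Hochberg adjustment (limma 3.58.1, R 4.3.3): stage by fraction means for poly(A), stage plus fraction for rRNA-depleted RNA. Titles tie the fractions of a preparation together, and deviations of same-numbered poly(A) libraries correlated at 0.511 to 0.929, so the numbers pair the libraries. The main poly(A) fit left this pairing out, and the paired fit was run beside it. Members, lists and tests were chosen with earlier results of these data known. Genes were named by a rule: all that met the size rule in both tables, up to 8 per table that met it there alone, those nearest to the threshold and set numbers of list members; CG7271, Unr, scyl, RpL37A, RpL4 and others beyond it were chosen after their values were seen. The main poly(A) fit and the rRNA-depleted fit were tested on simulated data with independent noise in each library. The paired fit was not tested in this way. Alternatives were other scalings, pseudocounts, level minimums and filters, single comparators and each preparation left out.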

Additional observations from a re-analysis of the deposited data

How the results depend on the processing

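All 10 genes higher in both tables met the rule with scaling to the total only, with factors from the NC 7-9 libraries alone, with pseudocounts of 0.5 and 2, without the filter and against flow-through alone. On values as deposited, where the eluate totals are far lower, 0 genes were higher and 6810 lower in both tables; the poly(A) table gave 11 and 7015 and the rRNA-depleted one gave 1 and 6973, and flow-through against input gave 284 and 301. A level minimum of 1 gave 25 higher and 14 lower in both, 48 higher in poly(A), 112 higher and 224 lower in rRNA-depleted RNA, and 18 and 25 for flow-through. A minimum of 20 gave 6 and 2 in both, 6 and 15 in poly(A), 22 and 88 in rRNA-depleted RNA, and 0 and 8 for flow-through. At that minimum the shared higher list lost all its nuclear genes (CG13712, CG13713, dunk and sisA) and kept the mitochondrial ones. Against input alone 18 genes were higher in both and 31 in poly(A); against flow-through alone 19 were lower in both and 53 in poly(A). Scaling to the total left 16 lower in both, a pseudocount of 2 left 5, and one of 0.5 gave 5 poly(A) genes for flow-through. Chosen after seeing the data, reads alone gave 2 genes, a minimum of 1 with no filter gave 26, and a fold of 0.5 gave 95 higher and 180 lower.

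For the later stages the poly(A) count of 3786 became 6919 on values as deposited, and 1940 to 3476 without 1 preparation; the lowest lacked the second NC 9-10 preparation and the next, 2481, the first. With the replicate block, in which libraries are paired by preparation, it was 5306, and it changed no call of the 25 genes. The rRNA-depleted count of 51 became 466 when scaled to the total, 6763 as deposited, 123 against flow-through, and 0 without the filter, without the stage term (no replicate block) and without any 1 preparation (0 to 0). The cause of these changes was not tested beyond what each setting removes.

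Log2 eluate over input turned negative only on values as deposited. At NC 7-9 it was −0.03 for CG13712, −0.53 for dunk and −0.57 for sisA in rRNA-depleted RNA. In poly(A) and rRNA-depleted RNA it was −2.22 and −3.57 for mt:CoI, −1.72 and −2.50 for mt:ND2, −2.06 and −3.40 for mt:ND4, −1.78 and −3.37 for mt:ND4L, −2.07 and −3.49 for mt:ND5, and −1.80 and −2.72 for mt:ND6. At the later stages in poly(A) RNA it was −0.38 for CG13713, −0.04 for CG15876, −0.17 for CG16813, −0.15 for sc, −1.70 for mt:CoI, −1.13 for mt:ND2, −1.34 for mt:ND4, −1.33 for mt:ND4L, −1.71 for mt:ND5 and −2.25 for mt:ND6. In rRNA-depleted RNA it was −0.45 for CG14014 and l(1)sc, −0.13 for CG15876, −0.52 for CG16813, −0.94 for CG16815, −2.49 for bnk, −1.25 for nullo, −0.28 for sc, −0.41 for sisA and mt:ND2, −2.61 for sna, −1.80 for mt:CoI, −1.39 for mt:ND4, −0.25 for mt:ND4L, −1.33 for mt:ND5 and −1.41 for mt:ND6.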
